A study of Mus musculus with 5 samples.

Results

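Binding of one transcription factor, Hoxc9, was mapped by ChIP-seq through a V5 tag and, separately, through a Flag tag, and the resulting lists of binding events were compared site by site. ChIP-seq recovers the DNA bound by a protein with an antibody and sequences it. The comparison rests on 60343 events of the 87107 used from all 4 lists of the series. Of these, 11065 came from the V5 list and 49278 from the Flag list. Members were all events of both lists on the 19 autosomes and X, so 5 V5 and 10 Flag events on unplaced contigs were set aside. Sites counted as shared if an event of the other list lay within 200 bp, and sites were ranked within their own list by IP reads, the reads assigned to the event in the antibody library.

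Both lists came from embryoid bodies made from mouse embryonic stem cells of the Ainv15 background, in which doxycycline switches on an inserted gene. The V5 group carried inducible V5-tagged Hoxc9, was collected on day 5 with doxycycline, and was precipitated with a rabbit antibody to V5. The Flag group carried inducible Flag-tagged Hoxc9, was collected on day 5 with doxycycline, and was precipitated with a mouse antibody to Flag (M2). All cells received retinoic acid (1 µM) with a hedgehog agonist (0.5 µM) from day 2, doxycycline was used at 3 µg/ml, and chromatin was fixed in 1% formaldehyde and sheared to about 500 bp. The V5 list stands for 2 libraries and the Flag list for 1, with 1 list per tag. Tag, antibody, line and number of libraries therefore cannot be told apart, and no difference below has a replicate check. The factor was induced in 1 line per tag and is not the cells' own Hoxc9. The labels call the cells motor neuron progenitors, and event lists hold no expression values with which to check this. The 2 Olig2 lists used for comparison below came from day 4 cells of a line with inducible V5-tagged Olig2, 1 without doxycycline and with an antibody to Olig2, the other with doxycycline and the V5 antibody.

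Hox proteins are homeodomain factors that give cells their position along the head-to-tail axis. They bind short AT-rich sequences, often together with Pbx and Meis partners, and act in part by controlling one another's genes. Hoxc9 marks the thoracic spinal cord, where it is known for repressing more anterior Hox genes and so for separating thoracic from limb-level motor neurons. In the mouse the Hox genes lie in 4 clusters, HoxA on chromosome 6, HoxB on chromosome 11, HoxC on chromosome 15 and HoxD on chromosome 2.

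Counted by shared V5 sites, the densest stretches of Hoxc9 binding in the genome lay on exactly these 4 chromosomes. When each chromosome was divided into bins of 100 kb, 5797 bins held at least 1 shared V5 site, and 3818 of them (65.9%) held 1 alone. Only 4 bins held 10 or more. They lay on chromosomes 6, 11, 15 and 2, 1 on each. By number of Flag sites these bins ranked 1, 4, 17 and 49 in the genome, in that order of chromosomes. By shared Flag sites, other bins held more than the 10 of this chromosome 2 bin. Among them were another bin on chromosome 6 with 13, and another on chromosome 2 and 1 on chromosome 8 with 12 each. A further bin on chromosome 8 and 1 on chromosome 14 held 11 each. The RefSeq gene table for GRCm38.p6 lists the 39 protein-coding Hox genes on the same chromosomes, 11 on chromosome 6, 10 on 11, 9 on 15 and 9 on 2. The event lists are in the older build mm9, for which no annotation was used here, so which genes lie in these bins was not read.

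On chromosome 6, the bin from 52100000 to 52200000 held 25 V5 sites, 23 of them shared, and 42 Flag sites, 26 of them shared. It ranked first in the genome for the number of sites in either list. Its V5 sites had between 30.5 and 560 IP reads with a median of 93, and its Flag sites between 28.3 and 735 with a median of 121.8. The strongest V5 site, at 52140940, had 560 IP and 17.7 control reads and ranked 12. Its Flag partner 17 bp away had 735 IP reads and ranked 270, so this event stood higher among V5 than among Flag sites. A second Flag event at 52140824, also within 200 bp, had 243 IP reads and ranked 3260. Flag reads at this place were thus divided between 2 events, and the part of this in the ranks was not tested. After the bins on chromosomes 11, 15 and 2 described next, bins on chromosomes 8 and 6 were level, with 9 shared V5 sites each. The chromosome 8 bin, from 27800000 to 27900000, held 9 V5 sites, all shared, and 18 Flag sites. The chromosome 6 bin, from 51900000 to 52000000, had 9 of 10 V5 sites shared and 21 Flag sites. Its strongest V5 site, at 51911217, had 283 IP reads, and the Flag partner had 531.4.

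On chromosome 11, all 13 V5 sites of the bin from 96100000 to 96200000 were shared, and 13 of 26 Flag sites were. Its strongest V5 site, at 96168369, had 550 IP reads and ranked 14, and the Flag partner 15 bp away had 1716 and ranked 16. The bin that followed on the same chromosome held 10 more V5 sites, 8 of them shared. On chromosome 15, all 12 V5 sites of the bin from 102800000 to 102900000 were shared, and 12 of 21 Flag sites were. The strongest V5 site there, at 102845099, had 742 IP reads and ranked 5, and its Flag partner 1 bp away had 1824 and ranked 13. On chromosome 2, 10 of 12 V5 sites and 10 of 16 Flag sites of the bin from 74500000 to 74600000 were shared. Its strongest V5 site, at 74572719, had 321 IP reads and ranked 83, and the Flag partner 13 bp away had 580 and ranked 505.

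Together the 4 bins held 62 V5 sites, of which 58 (93.5%) had a Flag site, and 105 Flag sites, of which 61 (58.1%) had a V5 site. Over the whole lists, the same measures were 81.8% of V5 sites and 22.4% of Flag sites. With the longer Flag list held to as many of its strongest sites as the V5 list has, they were 50.1% and 56.5%, so both depend on list length. Bins were chosen for their number of shared sites, so their higher shares are a description and support nothing. In the order of chromosomes 6, 11, 15 and 2, median V5 control reads in the bins were 11.8, 8.8, 10.3 and 14.7. Over the whole V5 list the median was 2.9. Median IP reads of these V5 sites were 93, 145, 140.5 and 116, values found in the first and second 10% of the list. Shared V5 sites there had medians of 10.7 and 8.8 control reads. Median Flag control reads in the bins were 8.3, 6.2, 4.2 and 10.4, against 2.4 over the whole Flag list. The part of these control reads in the density of sites was not tested.

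**Figure D1:**
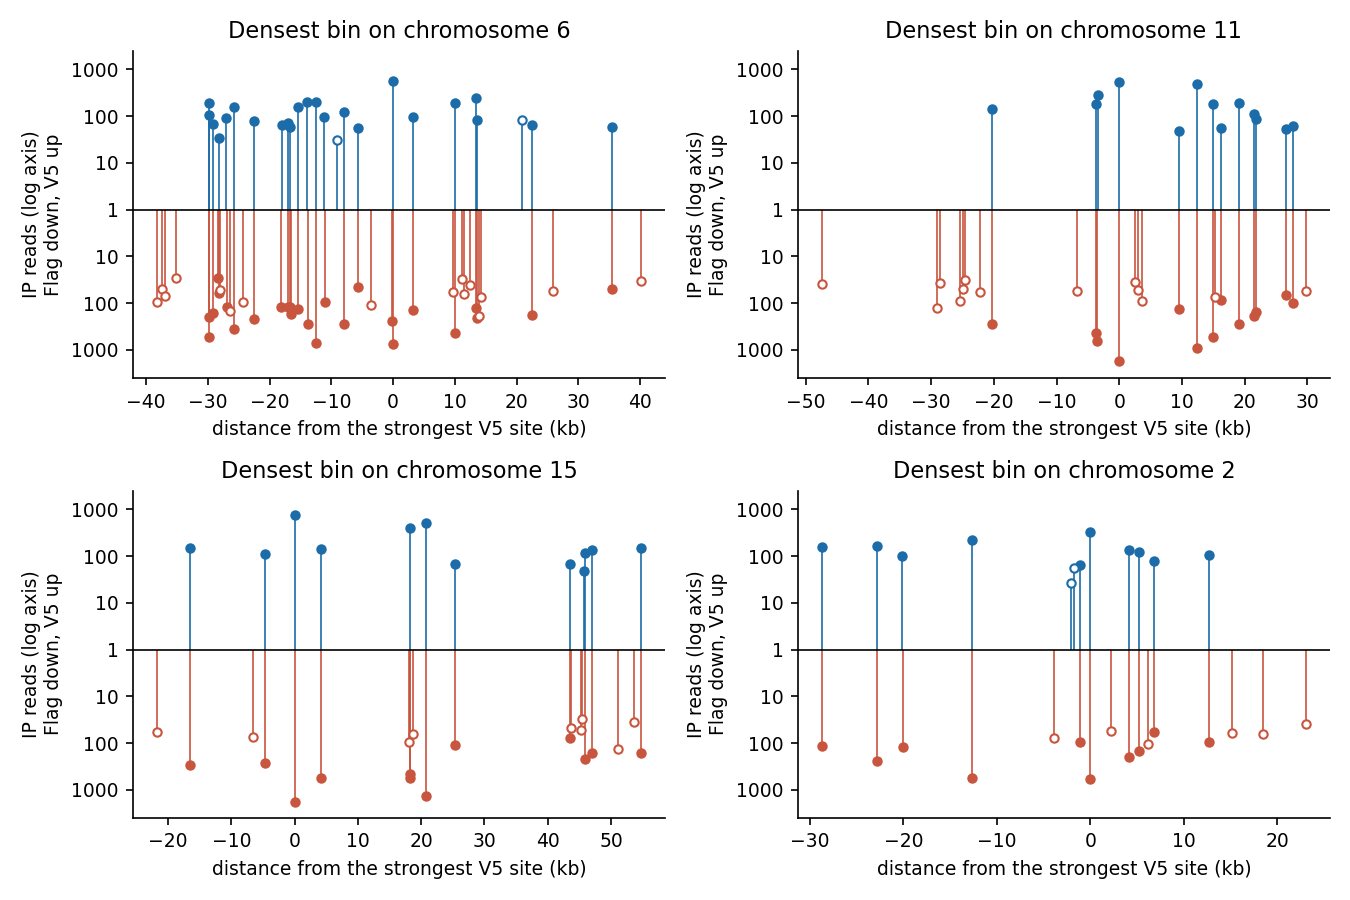
Sites of both Hoxc9 lists in the 4 bins of 100 kb with most shared V5 sites; the horizontal axis is the distance from the strongest V5 site of the bin in kb, the vertical axis is IP reads on a log axis with V5 up and Flag down, and filled circles are shared sites and open circles unshared ones. All V5 sites in the bins on chromosomes 11 and 15 are filled, while open Flag circles stand in every bin.

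Nearly all of the strongest sites of either list were also found with the other tag. The pair of one-to-one sites with the best ranks lay at 103135814 on chromosome 15, with 1597 V5 and 4764 Flag IP reads beside 23.6 and 16.6 control reads. It stood in a row of sites found with both tags: within 50 kb there were 7 V5 and 9 Flag events, and each of them was shared. The other V5 events of this row had between 30 and 207.1 IP reads and the other Flag events between 56 and 346. The V5 site 1.39 kb from the strongest one had 143 IP and 23.6 control reads (fold 6.1), and its Flag counterpart 346 IP and 16.6 control reads (fold 20.8). Across the row, control reads ran from 0 to 26.5 in the V5 list and from 0 to 16.6 in the Flag list.

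Chromosome 4 held a couple of the following pairs in rank, at 117003575 with 946 IP reads by V5 and 2271.5 by Flag, and at 73149979 with 696.8 by V5 and 2352.1 by Flag. Chromosome 13 had another at 39615901, where V5 gave 732 and Flag gave 2350 IP reads. At 27704719 on chromosome 8 the ranks differed more, V5 giving rank 15 (537 IP reads) and Flag rank 3 (2738). The first 10 pairs also included the strongest sites of the dense bins on chromosomes 15 and 11 described above. Completing them were single sites of chromosome 6 (117357338), chromosome 12 (74831760) and chromosome 1 (129428100). In all 10 pairs the Flag site had more IP reads than the V5 site, between 2.40 and 5.10 times as many. Library totals were not used here, so this ratio cannot be read as more binding with Flag.

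Of the other chromosomes, 8 carried a pair that ranked in the top 100 of both lists. The best on chromosome 5 was at 132062012, with 523.9 V5 and 1531.6 Flag IP reads. Chromosome 16 followed with a site at 50380487 (V5 460, Flag 1535), chromosome 3 with one at 127446703 (V5 498, Flag 1459.8) and chromosome 10 with one at 50453519 (V5 426, Flag 1909.6). On chromosome 2 both lists placed the event on the same base, 12808789, with 368 V5 and 1727 Flag IP reads. The best of chromosome 19, at 7142877, had 467 V5 and 1193 Flag IP reads. The best pairs of chromosomes 7 and 9, at 37495604 and 49873036, had 321 and 308 V5 reads and 1467 and 1857.1 Flag reads. These 8 pairs ranked from 17 to 95 among V5 sites and from 11 to 67 among Flag sites. On the remaining chromosomes, 14, 17, 18 and X, the worse rank of the best pair was between 102 and 275.

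Going down the V5 list, the share of sites with a Flag site fell slowly at first and then fast. It was 99.1% in the 10% of V5 sites with most IP reads (129 or more), 98.3% and 96.8% in the next steps of 10%, and 89.9% in the fifth. From there it dropped to 70.7% in the eighth step, 54.0% in the ninth and 46.7% in the last, which held 25 to 30 IP reads. In the Flag list the fall was steep from the start, from 74.8% in the first step (191 IP reads or more) to 44.4% in the second, 29.2% in the next and 4.93% in the last. The deposited lists end at a −log10 q of 2.001 for V5 and 2.005 for Flag, and their weakest events had 25 and 24 IP reads.

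When equal numbers of the strongest sites were taken from each list, about 1 site in 2 was shared. The share was higher with 5000 sites taken than with 100. It was lower again, 50.1% of V5 and 56.5% of Flag sites, with 11065 taken from each. Of the top 100 V5 sites, 47 were among the top 100 Flag sites (47%; Wilson 95% interval 37.5 to 56.7). Of the top 500, 48.6% were (44.2 to 53.0), of the top 1000, 53.1%, of the top 2000, 52.8% (50.6 to 54.9), and of the top 5000, 55.6% (54.3 to 57.0). For Flag sites among as many V5 sites, the shares were 47% of the top 100, 49.8% (45.4 to 54.2) of the top 500, 55.7% of the top 1000, 56.8% of the top 2000 and 61.9% (60.6 to 63.3) of the top 5000. Yet 98 of the top 100 V5 sites and 99 of the top 100 Flag sites had a partner somewhere in the other list. The lists thus nearly always held each other's strongest sites but gave them different ranks. Intervals cover counting error alone, since neighbouring sites are not independent.

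**Figure D2:**
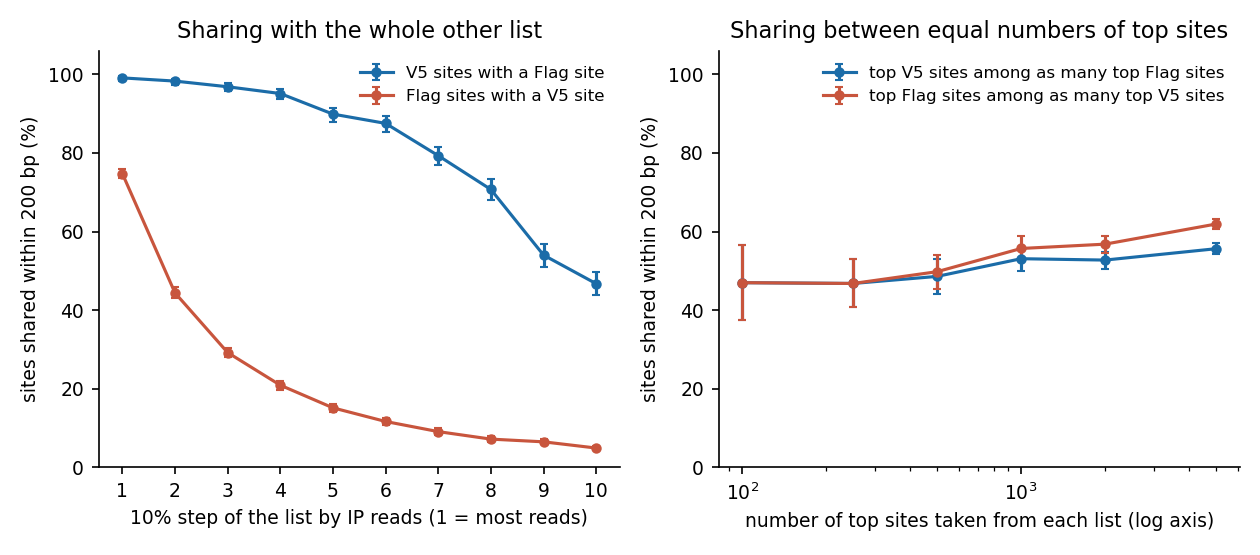
Left, percent of sites with a site of the other list within 200 bp, by 10% step of each list ranked by IP reads; right, percent shared when equal numbers of top sites are taken from each list (log axis). Bars are Wilson 95% intervals. The V5 curve at left runs from 99.1% to 46.7% and the Flag curve from 74.8% to 4.93%. The curves at right run from 47% at 100 sites to 55.6% (V5) and 61.9% (Flag) at 5000.

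IP reads at the same site were only loosely related between the lists. Across the 8933 one-to-one pairs, Spearman's rho between V5 and Flag IP reads was 0.605. The pairs share their genome position and, as described with the control reads, much of their control, so rho is a description. Each pair takes 1 Flag event, although 26.2% of shared V5 sites had 2 Flag sites within 200 bp. The part of Flag reads divided in this way in rho was not tested. The median Flag site had 2.19 times the IP reads of its V5 partner. Of all pairs, 6281 (70.3%) lay within 2-fold of that median ratio, and the SD of the log2 ratio was 0.933. Beyond 4-fold lay 92 pairs on the V5 side and 140 on the Flag side. Within most 10% steps of V5 reads the order of Flag reads was close to unrelated: rho was 0.473 in the first step, 0.149 in the second and between -0.0044 and 0.0962 in the other 8. A narrow range of reads within a step limits rho.

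The median ratio was nearly level along the V5 list, between 2.03 and 2.31 in every 10% step. Along the Flag list it fell from 3.595 in the first step to 0.774 in the last. A step of Flag reads fixes the numerator of the ratio, and both lists end near 25 reads, so these courses are set in part by the lists themselves. Pairs in the weakest Flag step thus had a median of 35 V5 and 27.6 Flag IP reads.

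**Figure D3:**
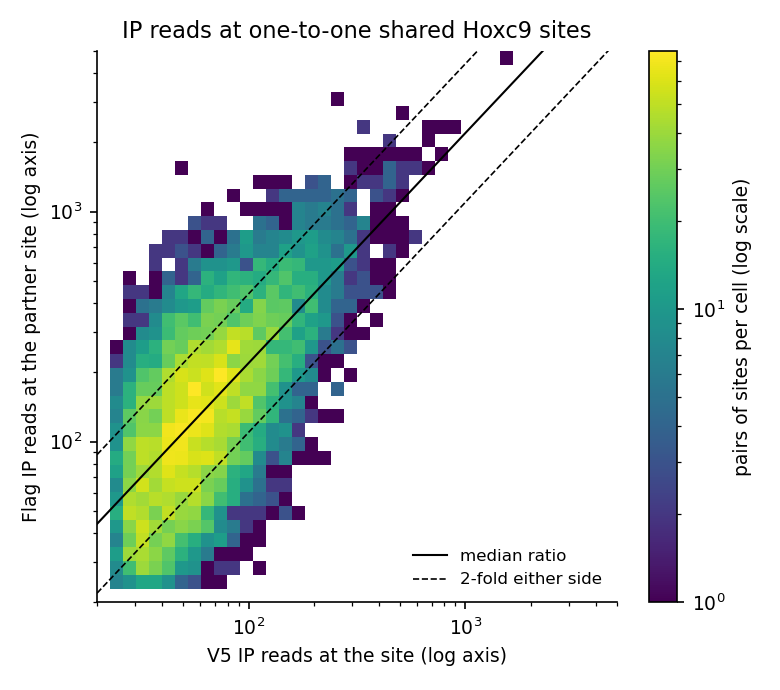
IP reads in the 8933 pairs of mutually nearest Hoxc9 sites, V5 on the horizontal and Flag on the vertical log axis; colour is the number of pairs per cell on a log scale, the solid line is the median ratio of 2.19 and the dashed lines lie 2-fold to either side. Of the pairs, 70.3% lie between the dashed lines.

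Some strong sites of one list were weak in the other. Among the top 1000 V5 sites with a partner, the one with the lowest Flag standing lay at 102106637 on chromosome 11, with 155 V5 and 45.9 Flag IP reads and ranks of 700 and 31903. It was followed by 42747698 on chromosome 19 (161 and 48.2), 113470660 on chromosome 5 (153 and 50.8), and by sites at 84243289 on chromosome 11 (V5 154, Flag 51.7) and 28881005 on chromosome 16 (V5 135.3, Flag 53.8). At each of these 5 the V5 site had more IP reads than the Flag site, which was so at 11.6% of all pairs. Their V5 control reads ran from 2.9 to 17.7.

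Among the top 1000 Flag sites the contrast went the other way. The pair with the lowest V5 standing, on chromosome 18 at 54586363, had 462 Flag and 27 V5 IP reads and ranks of 868 and 10520. Next, the site at 67305858 on chromosome 16 had 445.5 Flag IP reads and rank 946, and its V5 partner 29.9 IP reads and rank 9991. At 91436316 on chromosome 10 there were 549 Flag and 30.1 V5 IP reads. A pair of further sites on chromosome 16, at 41537793 and 76320427, had 469 and 465.7 Flag but 34 and 34.4 V5 IP reads. Set against the median ratio, the log2 ratio of Flag to V5 IP reads lay between 2.63 and 3.06 above it at these 5 pairs. At the 5 pairs chosen from the V5 list it lay between -2.89 and -2.46 from it. Both sets were chosen for the worst rank of the partner, so the size of these departures is a description. All 5 V5 partners stood within 10 reads of the lowest value in the V5 list. Chosen after its values were seen, the widest ratio of all was at 47632681 on chromosome 2, with 1455 Flag and 47 V5 IP reads, a ratio of 31.0 against the median of 2.19.

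Partner sites were placed close together, and more closely where binding was strong. The median distance within a pair was 21 bp, the middle 50% of pairs lay between 9 and 38 bp, and 125 pairs were on the same base. By V5 step the median rose from 14 bp in the first to 30 bp in the last, and the share within 50 bp fell from 95.9% to 68.8%. The limit of 200 bp divided few sites: 68 V5 sites had their nearest Flag site between 150 and 200 bp away, with a median of 32 IP reads, and 29 between 200 and 250 bp, with a median of 33.7. Of the 2019 unshared V5 sites, 235 (11.6%) had a Flag site within 1 kb.

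The Flag list, with 4.45 sites for each V5 site, more often had several events at one place. Of the 9046 shared V5 sites, 2368 (26.2%) had 2 Flag sites within 200 bp and 176 had 3 or more. Of 11034 shared Flag sites, 729 (6.61%) had 2 V5 sites. Shared V5 sites with 2 Flag sites had a median of 71.65 IP reads, against 55 at those with 1. The part of list length and of IP reads in these counts was not tested. Chaining events of both lists within 200 bp gave 8554 chains with both tags. In 6165 of them (72.1%) each list had 1 event, in 2039 (23.8%) Flag had more, and in 78 (0.912%) V5 had more. The richest chain spanned 111998570 to 111999270 on chromosome 11, 700 bp, with 4 V5 events of up to 140.1 IP reads and 5 Flag events of up to 325.1. The second, also on chromosome 11, spanned 14082011 to 14082679 with 3 V5 and 5 Flag events. The next were 82446942 to 82447298 on chromosome 9, 80281609 to 80282072 on chromosome 14 and 38755562 to 38756007 on chromosome 7, each with 3 V5 and 4 Flag events.

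Shared sites also stood closer to other sites of their own list. In the V5 list 8.30% of shared and 0.446% of unshared sites had another V5 event within 200 bp. In the Flag list these shares were 40.4% and 13.9%. The median gap to the next site of the same list was 25.7 kb at shared and 53.5 kb at unshared V5 sites, and 0.342 kb and 5.06 kb at Flag sites. A second event nearby also gives a site another chance to be matched, and this part was not tested.

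Control reads, the reads of a control library at the same place, were read before unshared sites were described. The values rise in equal steps: 93.7% of the nonzero V5 values and 90.9% of the Flag values, at events with whole IP reads, lay within 0.06 of a whole multiple of 2.94 and 2.08. The median of 2.9 in the V5 list and of 2.4 in the Flag list is thus about 1 such unit. At 2134 pairs within 20 bp with whole IP reads in both lists, the number of units was the same at 1926 (90.3%) and within 1 at 98.4%, with a rho of 0.977. The same number was also found at 88% of 225 such pairs of V5 Hoxc9 with native Olig2 sites and 86.3% of 146 with V5 Olig2 sites. Control reads of the lists are therefore not independent of each other. A fold at a typical site rests on about 1 control unit, and at 21.4% of V5 and 19.9% of Flag sites the control was listed at 0.

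Over the whole lists, unshared V5 sites were weak and poor in control reads. Their median was 32 IP and 2.9 control reads, against 59.3 and 5.4 at shared V5 sites. Among sites of like IP reads the order of the control reads turned. In the 10% of V5 sites with most IP reads, the 10 unshared sites had a median of 32.5 control reads and the 1097 shared ones 10.7, with a median fold of 5.7 against 17.4. In the next step 19 unshared sites had 18.8 and the shared ones 8.8. Median control reads were higher at unshared V5 sites in 7 of 10 steps and equal in the other 3. The excess was 1.2 reads or more in each of the first 6 steps, and from the seventh on it was 0 except for 0.1 reads in the ninth. Of the 100 V5 sites with most control reads (29.5 or more), 94 were shared (87.5 to 97.2). Their median rank by IP reads was 486.5, which lies in the first step, where 99.1% were shared.

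The same held in the Flag list, where the whole-list medians hid it. Over all Flag sites, median control reads were 2.4 at unshared and 2.3 at shared sites. Within steps of IP reads they were higher at unshared sites in 10 of 10 steps. In the third step, for example, unshared sites had 104 IP and 4.2 control reads and shared sites 105.3 and 2.1, that is 2 units against 1, and the median fold was 23.1 against 46.2. In the last 3 steps the medians came within 0.3 reads of each other. Of the 100 Flag sites with most control reads (24 or more), 32 were shared (23.7 to 41.7). Their median rank by IP reads was 8015.5, in the second step, where 44.4% were shared. Whether control reads account for missing partners was not tested.

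**Figure D4:**
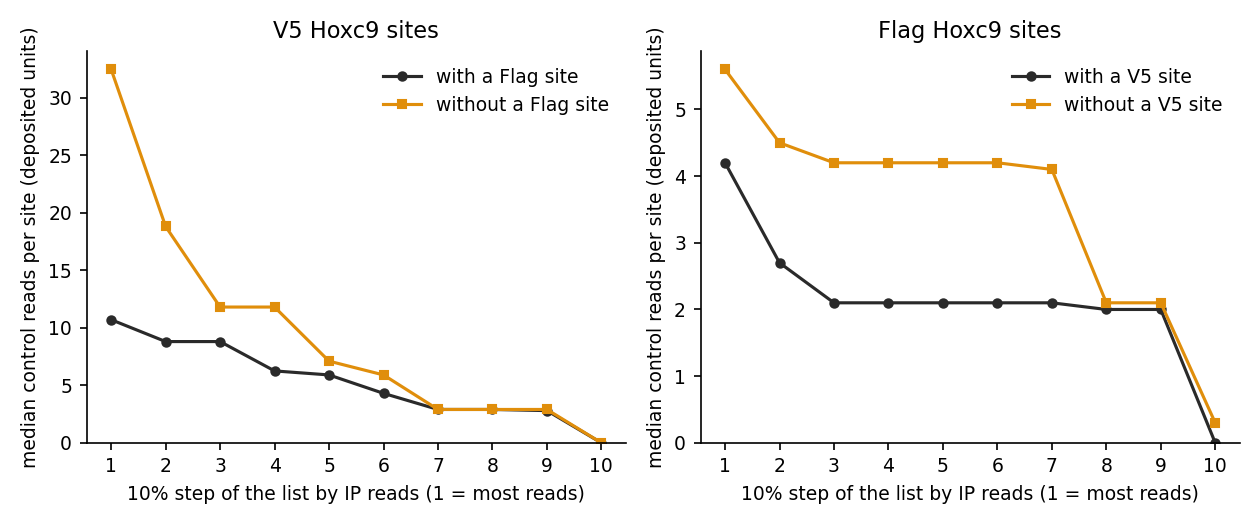
Median control reads per site, in the units of the deposited tables, by 10% step of IP reads, at sites with and without a site of the other list; left the V5 list, right the Flag list, on different vertical scales. In the first V5 step the medians are 32.5 without and 10.7 with a Flag site, and in the third Flag step 4.2 without and 2.1 with a V5 site.

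At the top of the V5 list, sites missing from the Flag list were rare. Among the 500 strongest there were 2, both near the listed start of chromosome 9 at 3000454 and 3001412, with 1626.8 and 1472 IP reads. Their control reads, 254 and 91.4, were the highest and second highest of the V5 list, and the nearest Flag event was 355 kb away. The nearest events of both Olig2 lists were 1310 kb from the first of them, so neither held this place. The next V5 sites with no Flag site within 1 kb had far fewer reads. The site at 36060618 on chromosome 1 had 154 IP and 8.8 control reads and lay 51 bp from a V5 Olig2 site. Those at 115751429 on chromosome 5 and 84973039 on chromosome 12 had 150 and 146 IP reads and 35.4 and 44.2 control reads, and their closest Olig2 events were 16.1 and 56.5 kb away.

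V5 sites whose nearest Flag site lay between 200 bp and 1 kb away were named separately. The strongest, at 79010758 on chromosome 13 with 169 IP reads, stood 613 bp from a Flag site of 1104.5 IP reads and rank 85. The others were 79645974 on chromosome 7 (138.3 IP reads, Flag site 519 bp away), 145446838 on chromosome 2 (120.9, 202 bp), 125676541 on chromosome 7 (115, 975 bp) and 54440998 on chromosome 18 (102, 276 bp). Of these 5, 4 had an Olig2 site within 200 bp, at 36, 9, 38 and 185 bp. All 5 ranked within the first and second steps of the V5 list, where 37.2% and 29.7% of shared sites had one. Of the unshared V5 sites in these steps, which include these 5, 2 of 10 and 8 of 19 had one. Of the 5 strongest Flag sites with a V5 site at this distance, 1 had an Olig2 site within 200 bp.

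Strong Flag sites without a V5 site were more numerous, 70 of the top 1000. The strongest, at 108810723 on the X chromosome, had 1686 IP and 9.9 control reads. The nearest V5 event was 778 kb away. The sites at 84416317 and 46806537 on chromosome 6, 98945407 on chromosome 5 and 27556884 on chromosome 8 had between 892 and 945 IP reads, at most 10.4 control reads, and no V5 event closer than 13.8 kb. In the order given, control reads at these 5 sites were 9.9, 10.4, 0, 8.3 and 2.1, beside the Flag list's median of 2.4. All 5 stood in the first Flag step, where the medians were 5.6 at unshared and 4.2 at shared sites. Above both of these medians lay 3 of the 5 sites, and below both lay 2. Flag sites with a V5 site between 200 bp and 1 kb away were led by 115363571 on chromosome 2 (731 IP reads, 681 bp) and 41472664 on chromosome 13 (717 IP reads, 794 bp).

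The X chromosome had the highest share of shared sites in the V5 list and the lowest in the Flag list. It held 100 V5 and 810 Flag sites, 8.1 Flag sites for each V5 site, where the autosomes had between 3.85 and 5.14. Of its V5 sites 90% were shared (82.6 to 94.5), against 75.7% to 84.6% on single autosomes, so this interval took in the highest autosome shares. Of its Flag sites 13.5% were (11.3 to 16.0), against 18.5% to 25.1%. Sites on X had fewer IP reads, with medians of 40.5 (V5) and 48 (Flag) beside 53 and 59 on autosomes. In the Flag list, X made up 0.731% of the strongest step and 2.86% of the weakest. In the strongest step, 26 of its 36 Flag sites (72.2%; 56.0 to 84.2) were shared, beside 74.8% on autosomes, and 46.8% beside 44.4% in the second. In the other 8 Flag steps the share on X was lower in 7, for example 20.6% (12.7 to 31.6) beside 29.3% in the third and 1.87% (0.514 to 6.56) beside 6.62% in the ninth. In the V5 list it was higher on X in each of the 10 steps. Steps 1 to 6 held only 3 to 8 X sites each, all shared, with intervals that reached below the autosome shares. In step 8 it was 73.7% (51.2 to 88.2) beside 70.7%. The gap was widest in the last step, where 14 of 16 X sites (87.5%, 64.0 to 96.5) were shared beside 46.1% on autosomes. The best pair on X, at 107513923 and named here after its values were seen, had 220 V5 and 1313 Flag IP reads and 0 control reads in both lists. Chromosome 10 had the lowest Flag share among autosomes, 18.5% (17.1 to 20.1), and chromosome 17 the lowest V5 share, 75.7% (71.0 to 79.8).

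**Figure D5:**
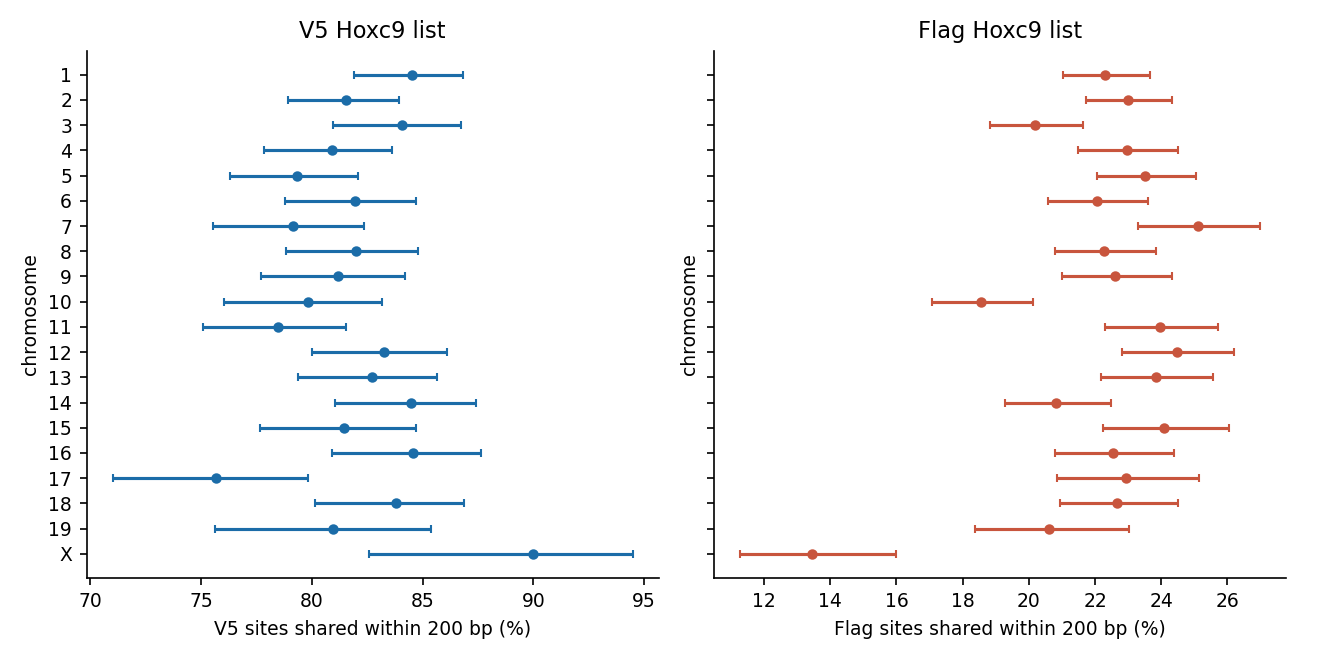
Percent of sites shared within 200 bp on each chromosome, with Wilson 95% intervals; left the V5 list, right the Flag list, on different horizontal axes that do not start at 0. The X chromosome has the highest V5 value (90%) and the lowest Flag value (13.5%).

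Sites found with both tags were also more often sites of Olig2, a readout the comparison of tags did not use. Olig2, a bHLH protein, is known for specifying motor neurons and later oligodendrocytes. An Olig2 event of either Olig2 list lay within 200 bp of 17.7% of all V5 and 10.9% of all Flag Hoxc9 sites. Among V5 sites it was 20.1% of shared (19.3 to 20.9) and 7.23% of unshared ones (6.18 to 8.44). Among Flag sites it was 20.5% of shared (19.7 to 21.2) and 8.13% of unshared ones (7.86 to 8.41).

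Shares with an Olig2 site also differed with IP reads, and the part of IP reads in this gap was not tested. Within steps of Flag IP reads the share with an Olig2 site was lower at unshared sites in 10 of 10 steps, from 24.0% against 10.5% in the first to 11.9% against 3.99% in the last. Within steps of V5 IP reads it was lower in 7 of 10. In V5 steps 2, 3 and 4 the unshared sites had the higher share, 42.1%, 28.6% and 22.2% against 29.7%, 23.4% and 21.7%, though these steps held only 19, 35 and 54 unshared sites. In the same steps unshared sites had more control reads, and the part of control reads was not tested. No test was made, since sites are not replicates.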

How the data were processed

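Reads were aligned with Bowtie 0.12.5 to mm9, per the submitters' processing notes. The events are named GPS_PEAK in the deposited interval lists, which hold the same positions as the event tables. For the event caller, the version, settings and control library were not stated. The series also holds a pseudo-ChIP control made with an antibody to V5 in day 4 cells. Whether it served as the control of either Hoxc9 list was not stated. Each event in the authors' deposited tables has an estimated count for IP and one for control, with 1 decimal. They also hold the ratio (fold) of IP over control, listed as 9999.9 for most events with control at 0, and −log10 p and q values, all deposited by the authors. The authors' further score columns were not used. Positions are mm9 as the tables give them, with no check of whether they count from 0 or 1. Depth is unknown, since library totals were not used here.

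Nearest events were found per chromosome, and pairs are events each nearest to the other within 200 bp. Ranks are by IP reads, ties taking the best rank. Steps are successive 10% parts of a list by IP reads. Intervals are Wilson 95%, for counting error only. No test was run: there is 1 list per tag and sites are not replicates. The search was tested on simulated lists with planted sharing. Sites were named by rules: the best 10 pairs by worse rank, the best pair per chromosome, the 5 most discordant pairs with a top 1000 site in each list, the 5 strongest sites with no partner within 1 kb or within 200 bp, the 5 richest chains and bins, and events within 50 kb of the first pair. The chromosome 8 bin level with the last of these bins was also given. The members, lists and rules were chosen with earlier results of these data known. The planned reading of genes and motifs at sites needed mm9 sequence and annotation and was not run, so no sequence is shown. The work used pandas 2.3.3 and numpy 2.4.6 under Python 3.11.15, with SciPy 1.17.1 for intervals and matplotlib 3.10.9 for plots.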

Additional observations from a re-analysis of the deposited data

Results flagged for a closer look

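The comparison left out 15 events on unplaced contigs. Their lowest fold was 8.1 in the V5 list and 6.6 in the Flag list, where the events used had folds of 3.1 or more in each. The V5 Hoxc9 list had 5, the strongest with 129 IP and 14.7 control reads (fold 8.8). The Flag Hoxc9 list had 10, the strongest with 480 IP and 10.4 control reads (fold 46.2).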

How the results depend on the processing

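No paired analysis was possible because each tag has 1 list and no test was run. Depth, control reads of about 1 unit per site and 1 list per tag limit every value here. Of 88 alternatives over 15 measures, 50 stayed within the interval of the reported value and 38 moved beyond it. The largest move came from list length: cutting the Flag list to the V5 length gave 50.1% for V5 sites and 56.5% for Flag sites. In what follows the first percentage is V5 sites with a Flag site and the second Flag sites with a V5 site. They were 79.4% and 19.9% within 100 bp, 83.1% and 25.6% within 500 bp, and 83.9% and 27.6% within 1000 bp. With a fold of 10 or more they were 77.5% and 18.2%, with 40 or more IP reads 89.9% and 23.4%, and at or below each list's median of control reads 67.3% and 18.0%. With neighbours merged they were 80.3% and 19.7%, and with mutually nearest events only 80.7% and 18.1%. Among the top 1000 sites, sharing was 43.1% for V5 and 46.9% for Flag sites at or below the median of control reads, and 51.4% of Flag sites one-to-one. The rank correlation of paired IP reads was 0.664 with a fold of 10 or more and 0.531 at or below the median of control reads, where the median distance was 22 bp and 68.7% of pairs lay within 2-fold of the median ratio. Merging neighbours gave 2.7 control reads at unshared and 2.7 at shared Flag sites (the latter measure was added after seeing the data). Shares with an Olig2 site moved with the distance. At shared V5 sites they were 16.6%, 23.0% and 25.4% within 100, 500 and 1000 bp, at shared Flag sites 16.9%, 23.9% and 26.6%, and at unshared Flag sites 6.90%, 9.79% and 11.02%. They were 9.30% at unshared V5 sites within 1000 bp and 19.6% at shared Flag sites with neighbours merged. At each distance the shared sites kept the higher share in both lists.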
